A study of Homo sapiens with 19 samples.

Results

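The transcription factors that lay out the gut tube and its ducts were followed across human liver organoids through 10 genes: the intestinal regulators CDX1 and CDX2, the foregut, pancreatic and duodenal regulators SOX2, PDX1 and NKX6-2, the ductal and hepatobiliary regulators SOX9 and HHEX, the endoderm regulators GATA4 and GATA6, and the gut epithelial regulator KLF5. These 10 genes were taken by Ensembl identifier from the 32703 genes listed in every deposited matrix, and all 10 were found. The organoids came from 1 human pluripotent stem cell line, W01 from WiCell, with a wild-type genotype in all 9 groups, and their dissociated cells were profiled by droplet 3′ single-cell RNA sequencing in 19 libraries. Organoids kept in ultra-low attachment plates (ULA) were untreated and were sampled on day 21 (3 libraries) and day 34 (2 libraries). Day 25 organoids from an orbital shaker (OS) formed the other 7 groups of 2 libraries each. Of these, 1 was untreated, 3 were treated with TGFB1 (10 ng/ml), PA (500 µM) or OA (500 µM), and each treatment had a control group of its own. TGFB1 is transforming growth factor beta 1, and PA and OA are used as in the labels, which give no full names. The protocol gives 20 days of culture and then 5 days of treatment for TGFB1 and PA, while OA appears in the sample titles alone. Trypsin lasted 10 more minutes, with an extra wash, for OS and day 34 ULA organoids. All groups share 1 cell line, and nothing in the labels says that replicates were separate cultures, so p-values measure only the spread between these libraries, which may be technical.

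In the embryo, the endoderm tube is divided along its length by transcription factors with overlapping domains. SOX2 marks the esophagus and stomach, CDX2 and CDX1 mark the intestine, and PDX1 marks the antrum, duodenum and pancreas that lie between them. HHEX marks the ventral foregut from which liver and bile duct arise, SOX9 marks ductal progenitors of liver and pancreas, and GATA4, GATA6 and KLF5 act more widely in gut epithelium. NKX6-2 belongs to the homeobox family of NKX6-1 and is known from neural tube and pancreatic and gastric epithelium.

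On GRCh38 (GENCODE v44) the genes lie apart, except that PDX1 (chr13:27920000-27926313, plus strand) and CDX2 (chr13:27960918-27969315, minus strand) are near neighbours. KLF5 is also on chromosome 13 (73054976 to 73077541). CDX1 lies at chr5:150166778-150184558, SOX2 at chr3:181711925-181714436, SOX9 at chr17:72121020-72126416 and GATA6 at chr18:22169589-22202528, all on the plus strand. HHEX lies at chr10:92689955-92695647 on the plus strand and NKX6-2 at chr10:132783179-132786147 on the minus strand. SOX2 lies inside SOX2-OT on the same strand, and SOX9, GATA6 and NKX6-2 overlap opposite-strand genes (SOX9-AS1, GATA6-AS1 and INPP5A among them). The sources used here do not say how shared reads were assigned, so the counts of these 4 genes are less certain.

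Promoters of 5 of the 10 genes (SOX2, HHEX, CDX2, GATA6 and KLF5, the last with 2 starts) were matched by symbol in RefSeq on GRCh38.p14, and the 250 bases before the start were searched on both strands for 3 short motifs. These were TTTAT, a core of the sequence bound by CDX proteins, GATAA, a core bound by GATA proteins, and CAGAC, a box bound by SMAD proteins, which carry the TGFB signal. The sequences of an intestinal, a hepatobiliary and a foregut regulator are shown. These 3 were among the genes that fell with TGFB1 in all cells, as GATA6 and KLF5 also were. Capitals mark the matches, and the first 2 motifs can overlap by up to 4 bases.
CDX2 promoter, chr13:27969316-27969565, minus strand: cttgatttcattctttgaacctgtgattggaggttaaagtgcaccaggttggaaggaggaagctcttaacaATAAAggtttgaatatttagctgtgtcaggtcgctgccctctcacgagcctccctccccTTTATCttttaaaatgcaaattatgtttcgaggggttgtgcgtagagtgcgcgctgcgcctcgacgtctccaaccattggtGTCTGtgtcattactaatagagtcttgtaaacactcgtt
HHEX promoter, chr10:92689705-92689954, plus strand: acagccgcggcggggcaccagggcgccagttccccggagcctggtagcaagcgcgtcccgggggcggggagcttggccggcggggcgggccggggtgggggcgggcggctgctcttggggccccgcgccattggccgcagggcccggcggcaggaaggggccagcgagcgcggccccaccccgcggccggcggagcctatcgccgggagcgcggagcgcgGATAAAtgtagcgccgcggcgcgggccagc
SOX2 promoter, chr3:181711675-181711924, plus strand: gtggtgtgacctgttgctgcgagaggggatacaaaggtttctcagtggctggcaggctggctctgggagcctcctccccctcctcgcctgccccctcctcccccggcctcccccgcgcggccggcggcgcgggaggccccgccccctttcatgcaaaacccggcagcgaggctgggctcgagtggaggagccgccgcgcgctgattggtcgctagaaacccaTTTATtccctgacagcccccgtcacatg

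In these windows CDX2 held 2 matches to TTTAT, 1 to GATAA and 1 to CAGAC. HHEX held 1 match to TTTAT overlapping 1 to GATAA, and SOX2 held 1 match to TTTAT. The TTTAT matches of HHEX and SOX2 began at -29 and -28 from the start. Of the windows not shown, that of GATA6 held 1 match to TTTAT (at -30) and 1 to CAGAC (at -8). KLF5 held 1 match to TTTAT (at -193) in 1 of its 2 windows. Of the 35116 promoter windows in the same table, 32.7% held TTTAT, 20.4% held GATAA and 38% held CAGAC on either strand, so such matches are frequent and are given as a description.

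After removal of cells with fewer than 500 detected genes or more than 20% mitochondrial counts, the libraries held 3089 to 12427 cells, with median depths of 1310 UMIs (TGFB1 control replicate 1) to 14304.5 UMIs (ULA day 34 replicate 1). Levels are given as CPM, the UMIs of a gene summed over the cells of a library and scaled to the same total in every library. On this scale levels of different genes cannot be compared. Fold changes and calls come from fits with a further scaling between libraries (TMM), whereas overlap of groups was judged on CPM. A fold change can therefore differ from the ratio of the CPM values beside it. Cells with an EPCAM UMI and none of COL1A2 or COL3A1 were taken as EPCAM-positive (epithelial), and cells with a COL1A2 or COL3A1 UMI and no EPCAM UMI as COL1A2/COL3A1-positive (mesenchymal). The share of EPCAM-positive cells ran from 0.532% in ULA day 34 replicate 1 to 88.4% in both OA libraries. Kinds with under 50 cells in a library were left out of that library, which removed the 23 EPCAM-positive cells of ULA day 34 replicate 1 and the 38 COL1A2/COL3A1-positive cells of OA replicate 2. No pair of libraries shared more than 32 cell barcodes. As a check of the liver label, the 8 hepatocyte markers summed to between 81.3 CPM (ULA day 34 replicate 1) and 22577 CPM (PA replicate 2) over all cells, and ALB, the albumin gene, ranged from 0.0385 CPM in a ULA day 34 library to 685 CPM in an OA library.

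Most of the transcription factors had higher levels per UMI in EPCAM-positive than in COL1A2/COL3A1-positive cells. Cells with UMIs of both markers, 29.8% to 59.7% of cells in ULA libraries, enter neither kind. In 17 libraries with both kinds of cell, CDX1, CDX2, SOX9, PDX1, GATA4, HHEX, NKX6-2 and KLF5 were each higher in EPCAM-positive cells in 17 of 17, SOX2 in 16 and GATA6 in 15. At the EPCAM-positive level under 3 UMIs would be found in the COL1A2/COL3A1-positive cells of 4 of these libraries for SOX2, 2 for CDX1 and 1 for HHEX, which say little. In the other libraries SOX2 was higher in 12 of 13, CDX1 in 15 of 15 and HHEX in 16 of 16. GATA6, which is also known from mesoderm, was the exception in both TGFB1 libraries, at 22.2 and 24.4 CPM in EPCAM-positive cells against 30.01 and 34.7 CPM in COL1A2/COL3A1-positive cells. Fitted with the library as a block (edgeR's quasi-likelihood test, adjusted over all genes tested), and counting genes that passed the low-count filter in COL1A2/COL3A1-positive cells alone, 8 of 8 genes were higher in EPCAM-positive cells of the ULA libraries, where 28.8% of all genes were. The count was 7 of 7 in the OA experiment, including the untreated libraries, against 31.1% of all genes, 6 of 6 in the PA experiment, against 28.3%, and 3 of 4 in the TGFB1 experiment, against 21%. The other genes, among them PDX1 in each experiment, did not pass that filter and are not counted. The shares of all genes are not matched to these counts, since they were not limited by that filter. In the OA experiment a gene had to pass it both with OA and for the OA control against untreated organoids. PDX1 and NKX6-2 passed it there for the OA control against untreated organoids only. Of all genes fitted, those not called were SOX2 with PA (log2 difference 0.89, SE 0.507, adjusted p = 0.152) and GATA6 with TGFB1 (-0.28, SE 0.191, adjusted p = 0.278), while CDX1 and SOX2 were too low to be tested there. The largest differences in ULA organoids were those of CDX1 (log2 difference 7.13, SE 0.506) and CDX2 (6.93, SE 0.486), while PDX1 had 0 to 10 UMIs per library in COL1A2/COL3A1-positive cells, too few for a size. CDX1 had 9 to 15 and CDX2 8 to 18 UMIs per library in these cells, so their sizes also rest on few counts. The smallest difference was that of GATA6 (1.30, SE 0.347).

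**Figure D1:**
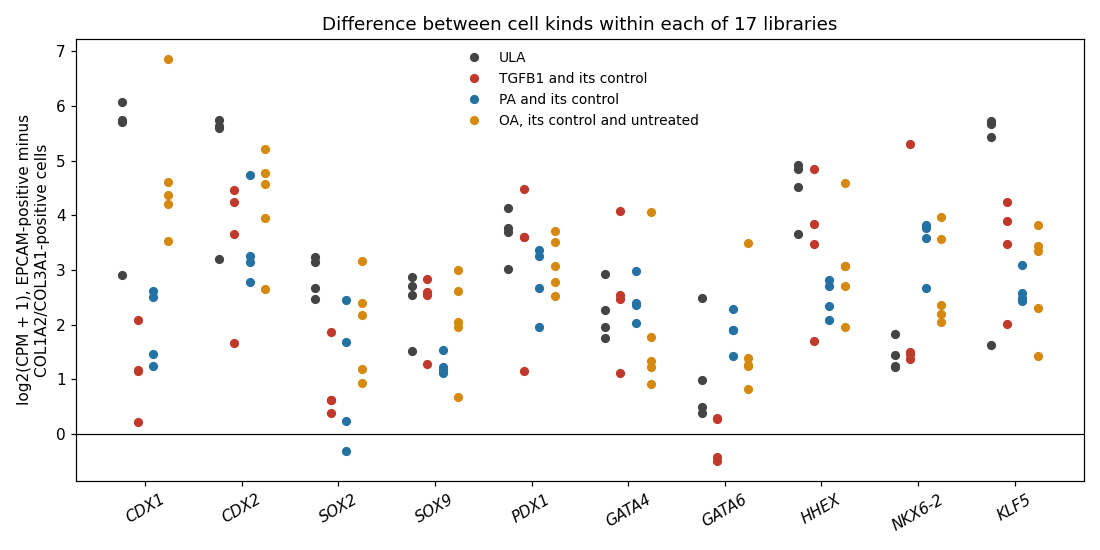
Each point is 1 of 17 libraries and gives the difference in log2(CPM + 1) between EPCAM-positive and COL1A2/COL3A1-positive cells of that library (y axis) for each gene (x axis), coloured by experiment. Points lie above 0 in all 17 libraries for 8 genes, in 16 for SOX2 and in 15 for GATA6.

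To compare shares of cells across depths, each cell was thinned to 1500 UMIs and shallower cells were left out. KLF5 was then detected in 8.44% to 34.4% of EPCAM-positive cells across 18 libraries, SOX9 in 7.06% to 28.7% and CDX2 in 2.2% to 14.2%. The corresponding shares of COL1A2/COL3A1-positive cells across 18 libraries were 0.464% to 18.5% for KLF5, 1.18% to 11.2% for SOX9 and 0% to 2.63% for CDX2. The 18.5% for KLF5 was 10 of 54 cells in OA replicate 1 and was followed by 8.17% in untreated replicate 2. CDX1 ran from 0.133% to 13.4% of EPCAM-positive cells and NKX6-2 from 0.267% to 16.1%. SOX2 was detected in at most 1.8% of EPCAM-positive cells, a level at which single cells say little. Free RNA can give UMIs in cells that do not express a gene, and shares in COL1A2/COL3A1-positive cells are given beside those in EPCAM-positive cells for comparison. They are not a measure of free RNA alone, since GATA6 was higher in these cells in both TGFB1 libraries.

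**Figure D2:**
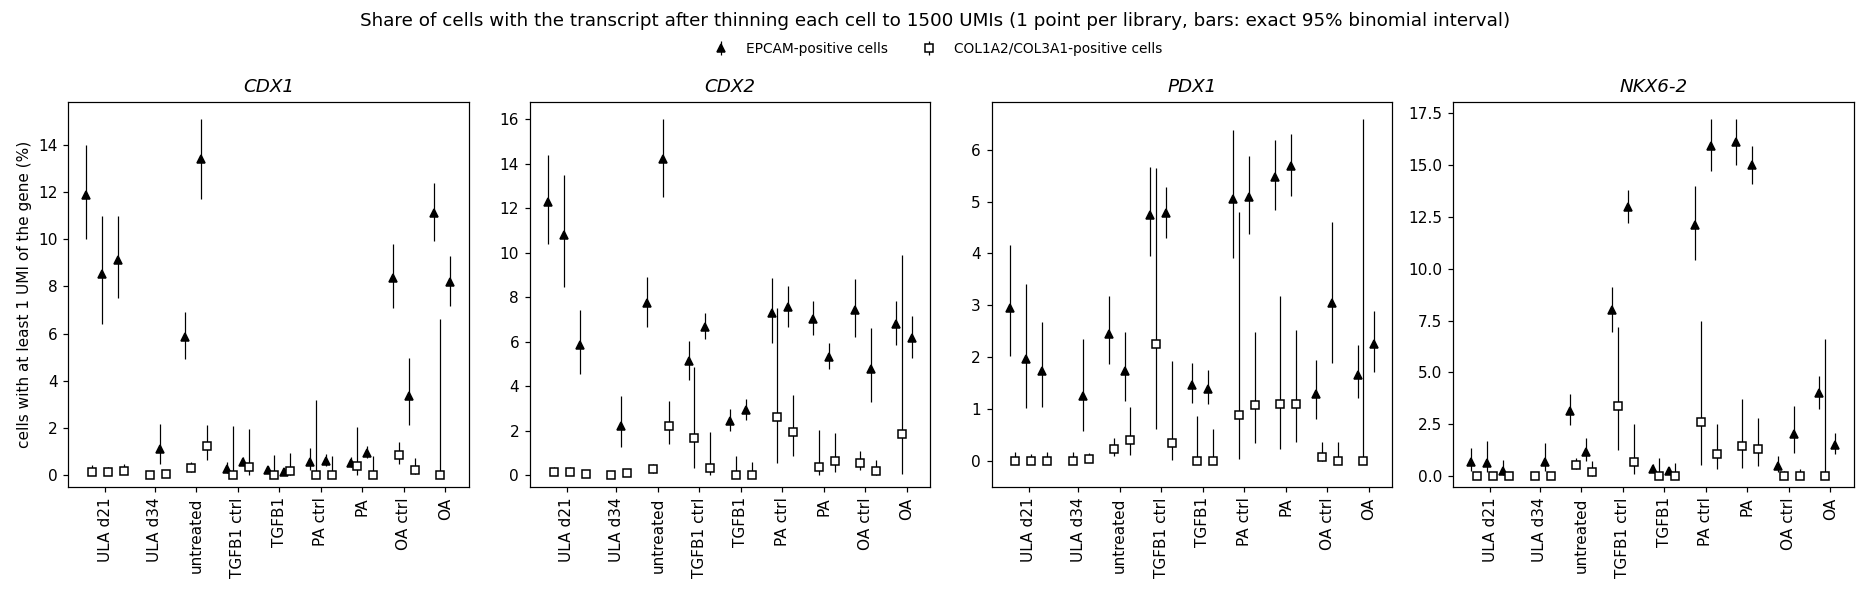
Percent of cells with at least 1 UMI of CDX1, CDX2, PDX1 or NKX6-2 after thinning to 1500 UMIs per cell (y axis), per library within each group (x axis), with exact 95% binomial intervals that cover counting error only. Filled triangles are EPCAM-positive cells and open squares COL1A2/COL3A1-positive cells. NKX6-2 reaches 16.1% in the PA experiment and lies at 0.347% and 0.267% with TGFB1.

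Levels in EPCAM-positive cells differed widely between the culture series, and these differences were not tested, because depth, gene annotation and software version differ between the experiments. CDX1, which promotes intestinal identity together with CDX2, averaged 106 CPM with OA, 88.3 CPM in ULA day 21, 73.9 CPM in untreated and 65.3 CPM in OA control organoids, and the ranges of these 4 neighbours in the order overlapped. It averaged 9.72 CPM in the 1 usable ULA day 34 library, 5.59 CPM with PA, 4.93 CPM in the PA control, 4.86 CPM in the TGFB1 control and 1.15 CPM with TGFB1. CDX1 therefore stood between 47.4 and 115 CPM in the 6 libraries of the OA experiment and between 1.04 and 7.404 CPM in the 8 libraries of the TGFB1 and PA experiments. CDX2 did not show this split. Its EPCAM-positive means were 83.1 CPM in untreated, 76.7 CPM in ULA day 21, 59.1 CPM in PA control, 56.7 CPM in OA, 54.1 CPM in OA control, 44.6 CPM in PA and 44.4 CPM in TGFB1 control organoids, followed by 18.1 CPM with TGFB1 and 13.1 CPM in ULA day 34.

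NKX6-2 and PDX1 were higher in the PA libraries and the TGFB1 control than in the OA experiment, and the libraries with TGFB1 did not follow. In EPCAM-positive cells NKX6-2 averaged 138 CPM with PA, 124 CPM in the PA control and 88.9 CPM in the TGFB1 control, and these 3 groups overlapped in that order. It averaged 11.9 CPM in untreated, 10.0 CPM in OA and 7.24 CPM in OA control organoids, 4.23 CPM in ULA day 34, 2.23 CPM with TGFB1 and 1.90 CPM in ULA day 21. PDX1, required for the pancreas and the duodenum, averaged 35.0 CPM with PA, 34.6 CPM in the PA control and 32.8 CPM in the TGFB1 control. The other 6 groups ran from 10.7 CPM (OA) to 14.2 CPM (ULA day 21), without overlap with the first 3 groups. SOX2 was highest in ULA day 34 (20.1 CPM) and ULA day 21 (8.46 CPM) and lowest with TGFB1 (0.825 CPM). Its PA control and PA libraries did not overlap, whereas the other neighbouring OS groups in the order did.

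Of the ductal and hepatobiliary pair, HHEX was highest in the TGFB1 control (134 CPM), did not overlap the next group there (PA, 46.8 CPM), and was lowest with OA (7.11 CPM). SOX9 averaged 193 CPM in the TGFB1 control and 160 CPM with TGFB1, and from 61.3 CPM (PA control) to 113 CPM (untreated) elsewhere. GATA6 ran from 23.3 CPM with TGFB1 to 92.8 CPM in untreated organoids, GATA4 from 6.98 CPM in ULA day 34 to 37.6 CPM in the TGFB1 control, and KLF5 from 59.4 CPM with TGFB1 and 127 CPM in ULA day 34 to 270 CPM with PA.

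**Figure D3:**
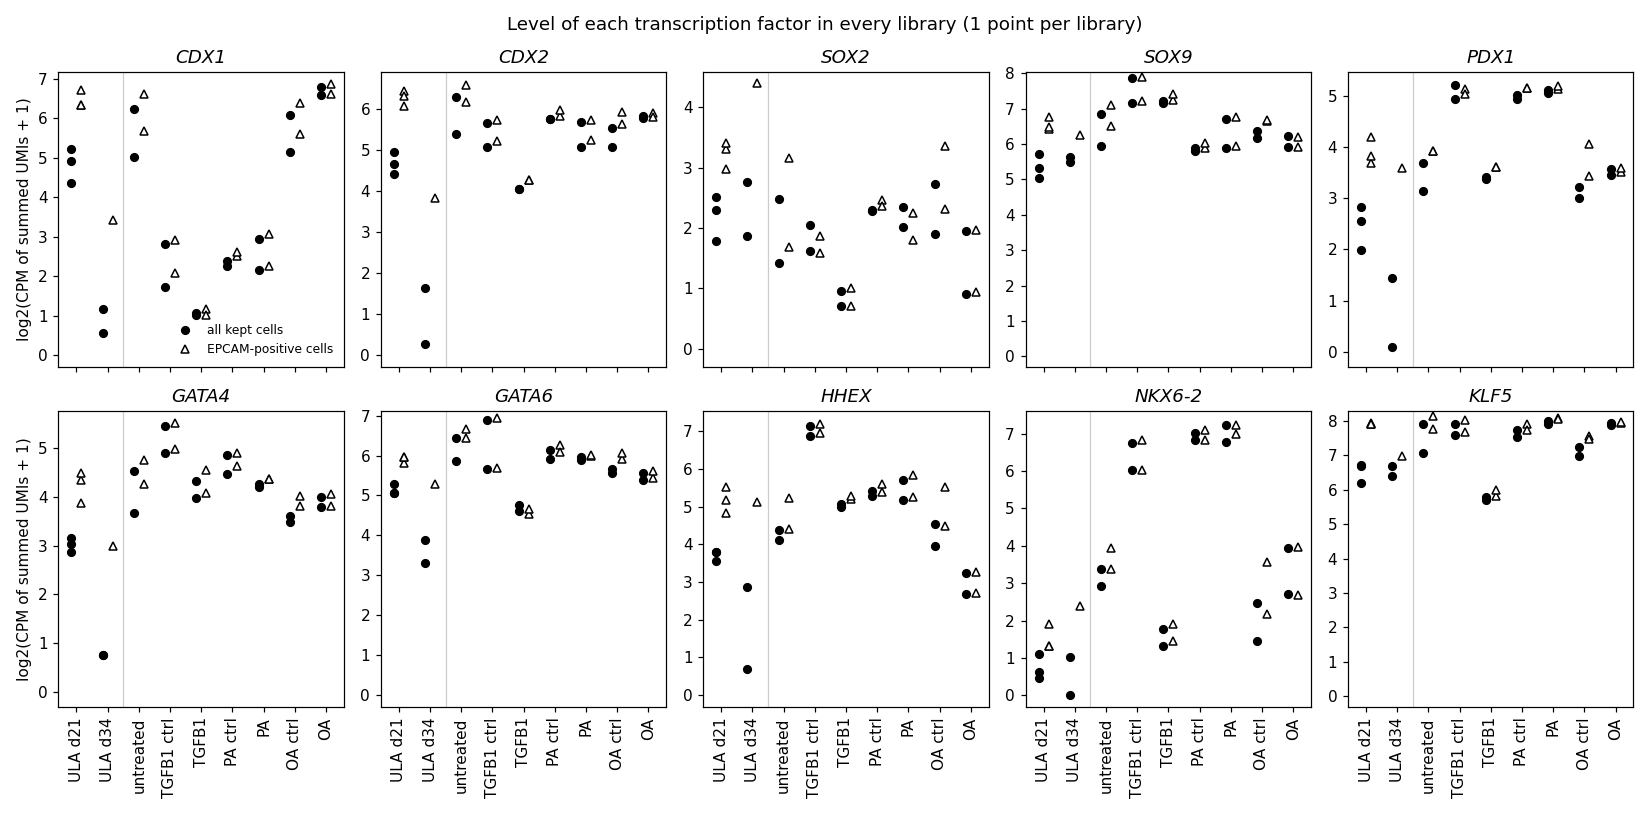
Level of each gene in every library, as log2(CPM + 1) on the y axis, by group on the x axis. Filled circles are all kept cells and open triangles EPCAM-positive cells, and 1 point is 1 library. CDX1 is high in ULA day 21 and in the 6 libraries of the OA experiment, and NKX6-2 in the 4 PA libraries and the 2 TGFB1 control libraries.

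TGFB1 for 5 days went with lower levels of nearly the whole set. In all cells, 9 of 10 genes were lower than in the control (edgeR adjusted p under 0.05), against 9.76% of all genes tested, and in EPCAM-positive cells 7 of 10 were lower, against 10.2% of all genes. No gene of the set rose in either fit. The median log2 fold change of the 10 genes in EPCAM-positive cells was -1.50, beside -0.04 over all genes tested. Sums over all cells cannot tell fewer cells of a type from less RNA per cell. The share of EPCAM-positive cells was 48.8% and 85.9% in the control and 68.3% and 77.6% with TGFB1. Cells with neither EPCAM nor collagen UMIs made up 44.7% and 4.9% in the control and 7.4% and 4.2% with TGFB1. The 44.7% belongs to control replicate 1, whose median depth was 1310 UMIs, and the part of depth in its 48.8% was not tested.

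NKX6-2 changed most. It stood at 64.3 and 113 CPM in EPCAM-positive cells of the 2 control libraries and at 2.72 and 1.75 CPM in the 2 TGFB1 libraries. The groups were far apart, and NKX6-2 fell by 5.14 on the log2 scale (SE 0.437, adjusted p = 0.00057). After thinning, 8.0% and 13.0% of control EPCAM-positive cells had an NKX6-2 UMI, against 0.347% and 0.267% with TGFB1. In COL1A2/COL3A1-positive cells the shares were 3.37% and 0.697% in the control and 0 of 431 and 0 of 595 cells with TGFB1, which allows up to 0.696% and 0.504%. PDX1 stood at 33.9 and 31.8 CPM in the control and 11.1 and 11.2 CPM with TGFB1, without overlap. Its log2 fold change was -1.36 (SE 0.200, adjusted p = 0.0043).

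The intestinal pair fell as well. CDX1 stood at 3.22 and 6.50 CPM in control EPCAM-positive cells and at 1.26 and 1.04 CPM with TGFB1. These low levels gave a log2 fold change of -1.97 (SE 0.432, adjusted p = 0.02). CDX2 stood at 36.3 and 52.4 CPM in the control and at 18.1 CPM in both TGFB1 libraries, and fell by 1.12 on the log2 scale (SE 0.271, adjusted p = 0.0283). Both genes were lower in each TGFB1 library than in each control library. SOX2, the foregut factor, stood at 2.67 and 2.01 CPM in the control and at 1.01 and 0.638 CPM with TGFB1. Its groups did not overlap, and it was lower in all cells (log2 fold change -1.47, adjusted p = 0.0332) but missed the threshold in EPCAM-positive cells (-1.26, adjusted p = 0.0566).

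HHEX stood at 146 and 122 CPM in control EPCAM-positive cells and at 35.7 and 38.0 CPM with TGFB1, a log2 fold change of -1.66 (SE 0.215, adjusted p = 0.0025). KLF5 stood at 263 and 205 CPM in the control and at 55.7 and 63.0 CPM with TGFB1, and fell by 1.77 on the log2 scale (SE 0.234, adjusted p = 0.00273). GATA6 stood at 121 and 50.2 CPM in the control and at 22.2 and 24.4 CPM with TGFB1 (-1.64, SE 0.359, adjusted p = 0.0201). The control libraries lay far apart for GATA6, and both stayed above the TGFB1 libraries. GATA4 stood at 44.7 and 30.6 CPM and at 15.9 and 22.5 CPM, and was lower in all cells (-0.86, adjusted p = 0.0455) but not past the threshold in EPCAM-positive cells (-0.75, SE 0.253, adjusted p = 0.0802). SOX9 was the exception of the set. It stood at 237 and 148 CPM in the control and at 149 and 170 CPM with TGFB1, the groups overlapped, and the log2 fold change was -0.05 (SE 0.264, adjusted p = 0.911).

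Other genes of the same domains moved in part, where 10.2% of all genes tested in EPCAM-positive cells fell and 9.42% rose. Of 15 tested intestinal epithelial genes, 9 fell in EPCAM-positive cells and 0 rose (median log2 fold change -1.79), led by TFF3, a goblet cell peptide (-4.03), PHGR1 (-3.87) and the mucin MUC13 (-3.10). Of 6 tested gastric and foregut genes, 3 fell, namely VSIG1 (-5.14), ANXA10 (-4.09) and TFF2 (-3.53). Of 23 tested other regulators of endoderm patterning, 8 fell and 0 rose, led by ONECUT1 (-3.58), the pioneer factor FOXA2 (-3.25) and NKX6-1, a pancreatic relative of NKX6-2 (-2.89). Of 15 ductal genes, 3 rose and 3 fell. The keratin KRT7, a bile duct marker, rose by 4.22 on the log2 scale, while ANXA4 fell by 1.65.

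Beside these changes, the 4 cycling markers summed to 294 and 181 CPM in control EPCAM-positive cells and to 17.1 and 14.5 CPM with TGFB1. The 8 mesenchymal markers summed to 44.6 and 21.9 CPM in the control and to 358 and 415 CPM with TGFB1 in the same gate. Of 7 tested, 1 was called, COL1A1, at a log2 fold change of 4.13, and DCN was at 0 in 1 TGFB1 library. The 8 hepatocyte markers summed to 2795 and 4173 CPM in the control and 6160 and 5229 CPM with TGFB1. Of 7 tested, 4 of these markers fell and 0 rose, led by ALB, which fell by 4.63, and APOB, which fell by 2.93, while SERPINA1, which averaged 2220 CPM in the control and 5258 CPM with TGFB1, made up most of the sum. The part of these markers in the result was not tested. In COL1A2/COL3A1-positive cells 4 of the 10 genes were tested by edgeR and 0 passed, where 0.0088% of all genes did. Of these 4, 3 (GATA4, GATA6 and KLF5) had an unadjusted p under 0.05, and DESeq2 called 1, KLF5, as lower. The share of all genes with such an unadjusted p is not given here, so the 3 of 4 cannot be set against it. The calls in EPCAM-positive cells rest on few libraries. Without TGFB1 replicate 1 they numbered 2 there (CDX1 and NKX6-2) and 5 in all cells, and without TGFB1 replicate 2 they numbered 5 and 6, with every log2 fold change of the 7 called genes negative.

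With OA, more genes of the set were called higher in all cells than in EPCAM-positive cells, and 1 was called lower in each. In all cells 6 of 10 genes were higher than in the OA control and 1, HHEX, was lower, against 30.1% and 29.4% of all genes tested. The share of EPCAM-positive cells moved with the groups, at 32.4% and 23.1% in the control and 88.4% in both OA libraries. Within EPCAM-positive cells 2 genes were higher and 1 lower, where 28.6% and 24.6% of all genes were, so the set was called no more often than genes at large. The median log2 fold change of the 10 genes there was 0.15, beside -0.02 over all genes.

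CDX1 stood at 83.2 and 47.4 CPM in EPCAM-positive cells of the OA control and at 115 and 97.6 CPM with OA. Both OA libraries were above both controls, and the log2 fold change was 0.92 (SE 0.293, adjusted p = 0.0348). Without OA control replicate 2 it was 0.52 and without OA replicate 1 it was 0.76, and in both cases the call was lost, as it was by DESeq2 (0.94) and with all shaker libraries in 1 fit (0.91). KLF5 stood at 187 and 176 CPM in the control and at 244 and 251 CPM with OA, a log2 fold change of 0.69 (SE 0.132, adjusted p = 0.0052). HHEX stood at 21.2 and 44.9 CPM in the control and at 5.52 and 8.69 CPM with OA, and fell by 1.93 on the log2 scale (SE 0.326, adjusted p = 0.00311). HHEX thus had the largest change of the set in these cells, and its groups did not overlap.

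The other 7 genes missed the threshold in EPCAM-positive cells. SOX9 stood at 100 and 101 CPM in the control and at 59.3 and 72.7 CPM with OA (log2 fold change -0.36, adjusted p = 0.0512), and SOX2 at 3.99 and 9.26 CPM and at 0.917 and 2.93 CPM (-1.49, adjusted p = 0.0583). Neither pair of groups overlapped. CDX2 stood at 59.5 and 48.7 CPM in the control and at 58.2 and 55.1 CPM with OA, with full overlap (0.30, SE 0.163, adjusted p = 0.16). NKX6-2 stood at 3.56 and 10.9 CPM and at 14.6 and 5.37 CPM, again with overlap (0.81, SE 0.575, adjusted p = 0.27). PDX1 (0.03), GATA4 (0.28) and GATA6 (-0.23) had adjusted p-values of 0.907, 0.13 and 0.118. GATA6 stood at 59.5 and 65.6 CPM in the control and at 42.2 CPM in OA replicate 1, and its groups did not overlap. With library totals alone in place of TMM scaling, 6 genes were called in these cells, with SOX2, SOX9 and GATA6 lower as well.

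Genes of the gut epithelium and stomach also rose in EPCAM-positive cells, where 28.6% of all genes rose and 24.6% fell. Of 16 intestinal genes, 14 rose in EPCAM-positive cells and 1 fell, with a median log2 fold change of 2.01. FABP2, which binds fatty acids in enterocytes, rose by 6.77, KRT20 by 6.62 and MUC13 by 4.43. Of 9 tested gastric and foregut genes, 8 rose and 0 fell, led by PSCA (7.21), MUC5AC (4.8) and TFF2 (4.61). The counts of the other 2 lists lay near those shares. Of 25 other regulators 9 rose and 4 fell, with HNF4G, an intestinal nuclear receptor, at 2.13, FOXA2 at -1.83 and IRX3 at -1.77. Of 15 ductal genes 4 rose and 5 fell, with CFTR at 1.32, AQP1 at -2.28 and SPP1 at -1.70. Hepatocyte markers summed to 16617 and 15872 CPM in control EPCAM-positive cells and 18033 and 15545 CPM with OA. Of 7 tested, 6 rose and 1 fell, with ALB at 4.99 and APOB at 3.75, while SERPINA1 averaged 13980 CPM in the control and 5533 CPM with OA. Of 8 mesenchymal markers 5 fell and 1 rose, and the part of either list was not tested. Cycling markers summed to 186 and 194 CPM in the control and 78.1 and 91.3 CPM with OA, and their part was not tested.

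**Figure D4:**
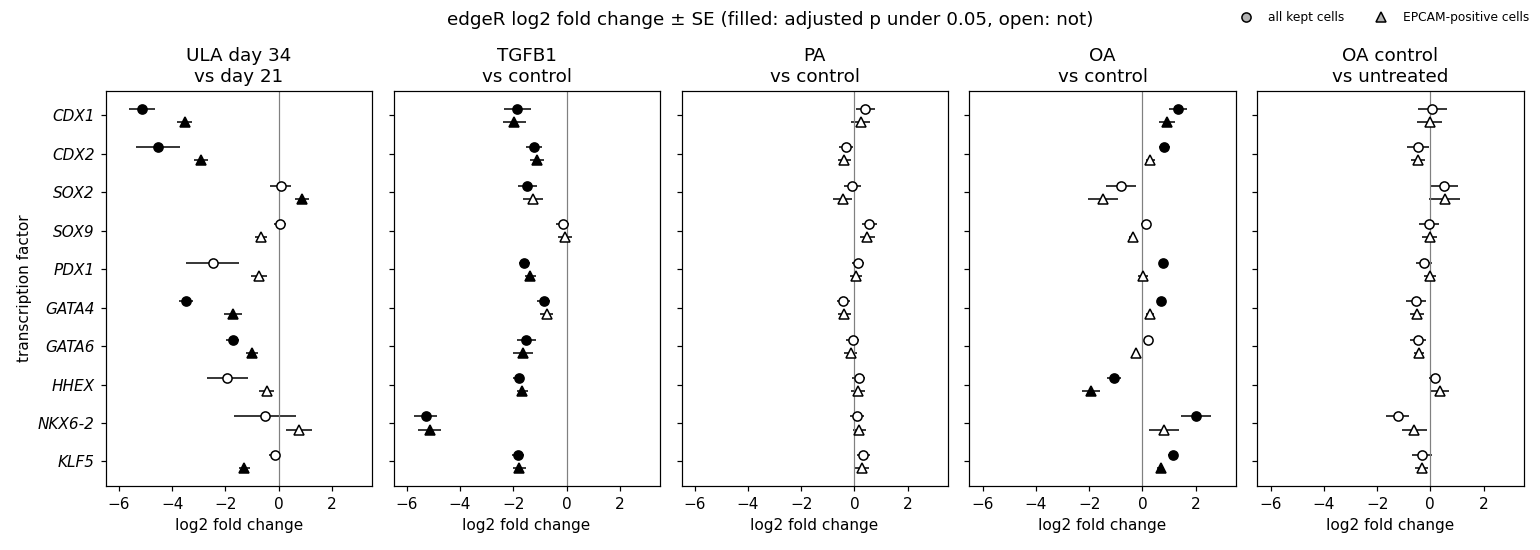
Log2 fold change with its standard error (x axis) of each gene (y axis) in 5 comparisons, for all kept cells (circles) and EPCAM-positive cells (triangles). Filled symbols have an adjusted p under 0.05. With TGFB1, 9 and 7 genes lie filled to the left of 0, and with PA and for the OA control against untreated organoids no symbol is filled.

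With PA, edgeR called 0 of 10 genes in all cells, 0 of 10 in EPCAM-positive cells and 0 of 6 tested in COL1A2/COL3A1-positive cells, where 0.0927%, 0.111% and 0.197% of all genes were called. No gene of the set had an unadjusted p under 0.05 in these 3 fits, and DESeq2 called 0 as well. NKX6-2, which was highest in these organoids, stood at 113 and 135 CPM in EPCAM-positive cells of the control and at 150 and 126 CPM with PA (log2 fold change 0.18, SE 0.239). PDX1 stood at 34.6 and 34.7 CPM in the control and at 34.3 and 35.8 CPM with PA (0.05, SE 0.224). The largest values in EPCAM-positive cells were those of SOX9, at 57.9 and 64.7 CPM against 60.1 and 107 CPM (0.48, SE 0.293), and SOX2 (-0.44, SE 0.351). Without PA replicate 1, SOX9 was called in all cells (log2 fold change 0.91, adjusted p = 0.0481).

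The OA control and untreated organoids were compared as a background for culture on the shaker, and the OA control libraries are the same as those in the comparison with OA. By edgeR 0 of 10 genes were called in all cells, 0 of 10 in EPCAM-positive cells and 0 of 9 tested in COL1A2/COL3A1-positive cells, where 0%, 0% and 0.02% of all genes were, and DESeq2 called 0 in each. The unadjusted p was under 0.05 for 1 gene (NKX6-2) in all cells, for 0 in EPCAM-positive cells and for 7 of 9 in COL1A2/COL3A1-positive cells. Those 7 had lower fitted levels in the OA control, with NKX6-2 at an adjusted p of 0.177 and PDX1 at 0.193 (log2 fold change -2.05). NKX6-2 had 43 and 5 UMIs in these cells of the untreated libraries and 0 in both OA control libraries. PDX1 had 19 and 8 UMIs against 3 and 4. These 2 genes passed the low-count filter through the untreated libraries, so their values say little. The share of all genes with such an unadjusted p is not given here, so the 7 of 9 cannot be set against it. Untreated replicates 1 and 2 differed by more than the groups did for several members. CDX1 stood at 50.2 and 97.7 CPM in untreated and at 83.2 and 47.4 CPM in OA control EPCAM-positive cells, HHEX at 36.5 and 20.3 CPM and at 21.2 and 44.9 CPM, and SOX2 at 7.89 and 2.22 CPM and at 3.99 and 9.26 CPM. NKX6-2 had the largest value in all cells, at 9.39 and 6.61 CPM in untreated and 1.75 and 4.57 CPM in OA control organoids (log2 fold change -1.23, SE 0.424, adjusted p = 0.348).

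Between day 21 and day 34 in ULA plates, the intestinal and GATA factors fell in the organoids as a whole. In all cells 4 of 10 genes were lower on day 34 and 0 higher, against 7.19% and 8.43% of all genes tested. CDX1 stood at 36.5, 19.4 and 29.2 CPM on day 21 and at 0.488 and 1.24 CPM on day 34, and fell by 5.15 on the log2 scale (SE 0.485, adjusted p = 0.00174). CDX2 stood at 30.1, 20.3 and 24.4 CPM and at 0.193 and 2.11 CPM (-4.54, SE 0.830, adjusted p = 0.014). Both CDX genes were lower in each day 34 library than in any day 21 library. GATA4 stood at 7.93, 7.18 and 6.29 CPM and at 0.694 and 0.691 CPM (-3.49, SE 0.256, adjusted p = 0.00101), and GATA6 at 32.2, 32.4 and 38.2 CPM and at 13.7 and 8.95 CPM (-1.73, SE 0.229, adjusted p = 0.00498). EPCAM-positive cells made up 11.7% to 18.8% of cells on day 21 and 0.532% and 6.01% on day 34, while 59.7% of cells of day 34 replicate 2 had both EPCAM and collagen UMIs.

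Within EPCAM-positive cells the comparison sets 3 day 21 libraries against day 34 replicate 2 alone, whose spread is assumed to equal that of day 21. There 5 genes were lower and 1 higher, against 8.32% and 9.25% of all genes. CDX1 stood at 104, 79.8 and 80.6 CPM on day 21 and at 9.72 CPM on day 34 (log2 fold change -3.54, SE 0.290, adjusted p = 2.4e-05), and CDX2 at 85.0, 78.9 and 66.2 CPM and at 13.1 CPM (-2.90, SE 0.265, adjusted p = 4.7e-05). GATA4 (-1.72, adjusted p = 0.00616), GATA6 (-1.0, adjusted p = 0.00886) and KLF5 (-1.29, adjusted p = 0.00199) were lower too. KLF5 stood at 242, 245 and 240 CPM on day 21, values close to each other, and at 127 CPM in day 34 replicate 2. In the 23 EPCAM-positive cells of day 34 replicate 1, which were not tested, KLF5 was at 259 CPM (68 UMIs), above each day 21 library. SOX2 went the other way, from 8.95, 6.86 and 9.56 CPM to 20.1 CPM (0.88, SE 0.260, adjusted p = 0.0398). Its call was lost without the cells with the most UMIs (0.11), with a stricter cell filter (0.81), by DESeq2 (0.90) and without day 21 replicate 1 (0.92). Those of KLF5 (-0.34, cells gated by the larger count) and GATA6 (-0.84, stricter cell filter) were lost under 1 alternative each.

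SOX2 is also known from squamous epithelium of the esophagus. The 7 squamous markers summed to 5.29, 2.98 and 4.65 CPM in day 21 EPCAM-positive cells and to 1256 CPM in day 34 replicate 2. Over all cells they summed to 9.46 to 15.2 CPM on day 21 and to 618 and 1643 CPM on day 34. Mesenchymal markers in the EPCAM-positive gate summed to 22.3 to 32.3 CPM on day 21 and 114 CPM on day 34, and the part of either in the result was not tested. Of 16 intestinal genes 13 were lower and 1 higher in EPCAM-positive cells, beside 8.32% and 9.25% of all genes, with LGALS4 at a log2 fold change of -5.53, KRT20 at -5.33 and the stem cell marker OLFM4 at 4.57. Of 26 other regulators 4 were higher, led by IRX5 (4.08) and IRX3 (3.04), and 11 lower, with the endoderm factor SOX17 at -2.86. Of 8 tested gastric and foregut genes 1 was higher and 3 were lower, namely ANXA10 (-5.03), TFF2 (-2.95) and TFF1 (-2.83). Among 15 ductal genes 3 were higher and 4 lower, with SPP1 at 3.53.

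In COL1A2/COL3A1-positive cells of the ULA organoids 5 genes were called, against 17.7% of all genes in either direction. KLF5 stood at 3.74, 3.64 and 4.59 CPM on day 21 and at 17.6 and 40.3 CPM on day 34 (log2 fold change 2.72, SE 0.326, adjusted p = 0.00221). SOX9 rose from 10.7, 12.6 and 17.6 CPM to 38.8 and 25.9 CPM (1.11, SE 0.261, adjusted p = 0.0237). SOX2 was called at 3.09, with 1, 7 and 4 UMIs on day 21 (at most 0.238 CPM) and 58 UMIs in day 34 replicate 2 (2.79 CPM). It passed the low-count filter through the day 34 libraries alone, so this call says little. GATA4 (-3.19) and GATA6 (-1.60) fell in these cells, and by less in EPCAM-positive ones (-1.72 and -1.0). Squamous markers summed to under 1 CPM in these cells on day 21 and to 50.3 and 925 CPM on day 34, and their part was not tested. With 1 day 21 library left out, the number of calls was 1 or 2.

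Whether a change differed between the 2 kinds of cell was tested as an interaction. For ULA organoids 8 of 8 genes that passed the low-count filter in both kinds differed, against 20.5% of all genes, with day 34 replicate 2 alone on that side. PDX1 and NKX6-2 entered through EPCAM-positive cells alone and are not counted. SOX2 is counted, though it passed in COL1A2/COL3A1-positive cells through the day 34 libraries alone. The shares of all genes given for the interactions include genes that entered through 1 kind of cell, so they are not matched to these counts. The spread comes from the day 21 libraries, and day 34 replicate 2 is assumed to vary like them. With cells gated by the larger count 4 of all 10 differed, and the difference of SOX2 turned from -2.98 to 0.26 and was not called. With TGFB1, 1 of the 4 genes that passed in both kinds did (GATA6, log2 difference -0.82), against 6.15% of all genes. DESeq2 called 0 of all 10. The genes that did not pass entered through EPCAM-positive cells alone and say little on a difference. The GATA6 call was also lost without either TGFB1 library (-0.88 and -0.74). With OA, 1 of the 7 genes that passed in both kinds did (KLF5, log2 difference -1.85), against 3.3% of all genes. OA replicate 1 was the only OA library in that fit. SOX2, PDX1 and NKX6-2 entered through EPCAM-positive cells alone, could not be tested for a difference and are not counted. DESeq2 called 2 of all 10. The KLF5 difference turned to 0.09 with cells gated by the larger count, where 4 genes were called. With PA and for the OA control against untreated organoids edgeR called 0 of 6 and 0 of 9 genes that passed in both kinds. It called 0.335% and 0.00606% of all genes there. Neither edgeR nor DESeq2 called any of all 10. Of all 10, 3 and 5 genes had an unadjusted p under 0.05, with SOX2, which did not pass in both kinds, among them each time. The share of all genes with such an unadjusted p is not given here. In COL1A2/COL3A1-positive cells with OA, 1 library of 60 cells against 2 control libraries, 3 of 7 tested genes were called by edgeR, against 11.9% of all genes. The spread there comes from the 2 control libraries alone, and the lone OA library is assumed to vary like them. DESeq2 called 1, KLF5, and all OS libraries in 1 fit gave 0. The fitted log2 fold changes were 2.52 for KLF5 (adjusted p = 8.3e-08), 1.30 for SOX9 (adjusted p = 0.0389) and -3.24 for GATA6 (adjusted p = 0.00678), and with cells gated by the larger count KLF5 was at 0.64 and not called. KLF5 had 90.1 CPM in that library and 17.4 and 11.4 CPM in the control, and GATA6 was 1 UMI. Squamous markers summed to 3763 CPM there and 144 and 203 CPM in the control, and their part was not tested.

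Transcripts of the set were also found together in single cells to different degrees. In EPCAM-positive cells thinned to 1500 UMIs, the number of cells with both transcripts was divided by the product of the 2 shares and the cell number, in libraries where that product was at least 5. CDX2 with CDX1 gave a median ratio of 1.4 over 8 libraries (above 1 in 7), CDX2 with KLF5 1.25 over 17 (above 1 in 14), CDX2 with PDX1 1.31 over 5 (above 1 in 5) and PDX1 with NKX6-2 1.3 over 6 (above 1 in 6). SOX9 with HHEX gave 1.2 over 15 libraries (above 1 in 12). CDX2 with the ductal pair gave 0.896 with SOX9 over 16 libraries (below 1 in 12) and 0.872 with HHEX over 11 (below 1 in 9). Without thinning these turned to 1.23 with SOX9 over 18 libraries (above 1 in 15) and to 0.98 with HHEX over 18 (below 1 in 11), so the direction for SOX9 depends on the thinning. SOX2 met this limit after thinning only with KLF5 among the 6 pairs computed for it, at a median of 0.817 over 6 libraries (below 1 in 4), which turned to 1.07 over 17 (above 1 in 13) without thinning. Without thinning, which lets deep cells hold more of every transcript, SOX2 and CDX2 were found together in 16, 8 and 7 EPCAM-positive cells of the 3 ULA day 21 libraries, where the products of the shares were 43.7, 22.4 and 41.3 cells. The same pair had ratios of 0.199 to 1.4 in 10 OS libraries. Cells of a library share its depth and free RNA, and these ratios are a description.

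Across the 14 OS libraries, the genes whose log2(CPM + 1) in EPCAM-positive cells followed each factor most closely were listed among 10638 genes with a mean of at least 5 CPM. Those of CDX1 were CMBL (Pearson r 0.989), MYCBP (0.980) and the gastric gene ANXA10 (0.979), and those of CDX2 were GCNT1 (0.936), EPHX2 (0.934) and TFF3 (0.933). NKX6-2 was followed by CDKN1C (0.967), FRZB (0.956) and PDX1 (0.953), itself a member of the set, and PDX1 by PNMT (0.978), BCAM (0.978) and CFAP221 (0.970). HHEX was followed by WTIP (0.979), HIP1 (0.975) and LAMA1 (0.972), SOX9 by STK11 (0.972), ZFP36L1 (0.972) and ZDHHC8 (0.953), and KLF5 by TSPAN7 (0.957), SEMA4G (0.95) and RAB3B (0.945). Among the genes that followed GATA4 were TEX2 (0.941) and PGAP1 (0.938), and GATA6 was followed by PGD (0.958), OGA (0.931) and SNHG19 (0.930). SOX2 had the lowest values, with CKB (0.851), FDX2 (0.834) and ADH1A (0.828). The 14 points share experiments, software version and depth, so these correlations are descriptions of these libraries.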

How the data were processed

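Single-cell 3′ RNA libraries were made with 10x Genomics version 3 chemistry, per the labels' protocols. For each of 19 libraries the authors deposited UMI counts by gene and barcode, without normalization. The file headers name software versions 3.0.2 and 6.0.2, the submitters' processing notes name Cell Ranger 3.0.2, bcl2fastq, Scanpy and GRCh38, and counting settings are not stated in those sources. Cells with at least 500 genes and at most 20% MT- counts were kept. Doublets were not called; an alternative left out the cells with the most UMIs, 0.8% per 1000 barcodes, and cells with both EPCAM and collagen UMIs entered neither gate.

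Counts were summed per library over all kept cells and over each kind of cell, with libraries as replicates. Each comparison was fitted on its own 2 groups in edgeR 4.0.16 (R 4.3.3; TMM, filterByExpr, glmQLFTest, Benjamini-Hochberg over all genes tested, threshold 0.05). EPCAM-positive and COL1A2/COL3A1-positive cells were compared with the library as a block, and differences of effect with an interaction term. Only plain fits of 2 groups were run on simulated data, in all cells for ULA, TGFB1, PA and OA and in EPCAM-positive cells for TGFB1. Fits with a block, with an interaction or in COL1A2/COL3A1-positive cells were not simulated. Comparisons of OA with its control and of that control with untreated organoids share the OA control libraries. Shares of cells used cells thinned to 1500 UMIs. Depth per library is counted after filters; intervals (95%, Clopper-Pearson) and limits from 0 counts (3 counts of the total) cover counting error only.

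The members and lists were chosen with earlier results of these data known. All 10 members are named; from each list up to 3 called genes with the largest absolute log2 fold change are named per comparison, and the 3 genes with the highest Pearson r (log2(CPM + 1), mean CPM of at least 5) per member. The lists were other regulators of endoderm patterning, intestinal, gastric and foregut, ductal and visceral mesenchymal genes, and markers of hepatocytes, mesenchyme, epithelium, squamous, neural, pluripotent or germ, endothelial, blood and cycling cells. Alternatives were DESeq2 1.42.0, no TMM, no low-count filter, a stricter cell filter (1000 genes, 10% MT-), gates of 2 UMIs or by the larger count, 1 fit over all OS libraries, a replicate block and leaving out each library. Values of some genes that these rules and lists select are not reported here.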

Additional observations from a re-analysis of the deposited data

Results flagged for a closer look

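In the cases listed here the change between 2 groups differed between EPCAM-positive and COL1A2/COL3A1-positive cells by edgeR's interaction test (the change in EPCAM-positive cells minus that in the others, log2). For day 34 against day 21 in ULA plates 8 of 8 genes that passed the low-count filter in both kinds differed, where 20.5% of all genes did. PDX1 and NKX6-2 entered through EPCAM-positive cells alone, and their values are given without being counted. The share of all genes was not limited in this way and is not matched to the count. The result rests on day 34 replicate 2 alone, the single day 34 library with enough cells of both kinds. Its spread is assumed to equal that of the day 21 libraries. With cells gated by the larger count 4 of all 10 genes were called, and the difference of SOX2 was 0.26. The change of CDX1 differed by -3.087 (adjusted p = 0.00114), CDX2 by -2.762 (adjusted p = 0.00121), SOX2 by -2.983 (adjusted p = 0.00013), SOX9 by -1.473 (adjusted p = 4.9e-06), PDX1 by -4.408 (adjusted p = 0.00074), HHEX by -2.614 (adjusted p = 8.3e-05), NKX6-2 by -2.949 (adjusted p = 0.00928) and KLF5 by -4.519 (adjusted p = 1.4e-13). GATA6 differed by 1.811 (adjusted p = 1.6e-05) and GATA4 by 4.464 (adjusted p = 0.00042), the latter with 1 UMI in the day 34 COL1A2/COL3A1-positive cells. In the 3 day 21 libraries these cells held 1, 0 and 1 UMIs of PDX1, 1, 2 and 1 of NKX6-2 and 1, 7 and 4 of SOX2, so the sizes of those differences rest on few counts.

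With TGFB1, the change of GATA6 differed by -0.816 (adjusted p = 0.034), with 121 and 50.2 CPM against 22.2 and 24.4 CPM in EPCAM-positive cells and 99.4 and 40.9 CPM against 30.01 and 34.7 CPM in the others, where 6.15% of all genes differed. With OA, the change of KLF5 differed by -1.854 (adjusted p = 0.0408), where 3.3% of all genes differed. With cells gated by the larger count it changed sign, to 0.09. It rests on the 60 COL1A2/COL3A1-positive cells of OA replicate 1, in which KLF5 stood at 90.1 CPM against 17.4 and 11.4 CPM in the control.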

How the results depend on the processing

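The number of the 10 genes called was within 1.5 times the reported one under most alternatives. DESeq2 gave 1 in COL1A2/COL3A1-positive cells with TGFB1 (reported 0) and with OA (reported 3), and 0 and 2 differences of effect between the kinds of cell with TGFB1 and OA (reported 1 each). Without the low-count filter these cells gave 5 with TGFB1 and 5 for the OA control against untreated (reported 0 each), and the differences numbered 4 with TGFB1, 3 with OA and 6 for the OA control against untreated (reported 1, 1 and 0). Gating by the larger count gave 1 in these cells with TGFB1 and differences of 4 for ULA (10 with the gates as reported, PDX1 and NKX6-2 included) and 4 with OA, and there the differences of SOX2 in ULA (0.26) and KLF5 with OA (0.09) changed sign. In OA EPCAM-positive cells (reported 3), library totals without TMM gave 6 and the stricter cell filter 5. With OA, all OS libraries in 1 fit gave 0 in COL1A2/COL3A1-positive cells, and leaving out the cells with the most UMIs gave 2 differences.

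Same-numbered libraries deviated together with correlations of -0.483 to 0.171, and the labels do not say that a number marks a shared culture. A replicate block gave 0 for ULA in all cells (reported 4), 6 in OA EPCAM-positive cells (reported 3), and 2 in COL1A2/COL3A1-positive cells both with TGFB1 and for the OA control against untreated (reported 0). The crossed pairing, added after seeing the data, gave 1 for the OA control against untreated in all cells (reported 0).

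Leaving out 1 library at a time gave, for ULA, 3 to 7 in all cells, 5 to 8 in EPCAM-positive and 1 to 7 in COL1A2/COL3A1-positive cells. It gave 5 to 9, 2 to 9 and 0 to 6 with TGFB1, 0 to 1 in all cells with PA, 2 to 5 in OA EPCAM-positive cells, and 0 to 7 in COL1A2/COL3A1-positive cells for the OA control against untreated. Differences of effect numbered 0 to 7 with TGFB1 and 0 to 2 for the OA control against untreated. In ULA EPCAM-positive cells the replicate block and the fit without day 34 replicate 2 could not be made. Nor could, with OA, the fits in COL1A2/COL3A1-positive cells with the stricter filter, the block, or without either control library or OA replicate 1, and the matching differences. For single genes the call stayed as reported in 2338 cases, which include changes of sign where neither fit called the gene. With the sign kept, the call was gained in 106 cases and lost in 84. In 2 cases the sign changed and at least 1 of the fits called the gene. Where a value changed, the cause was not tested unless fewer libraries or genes entered.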

Other observations

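Cell type marker lists moved in EPCAM-positive cells as follows (edgeR, adjusted p under 0.05). Of all genes tested there, 9.42% were higher and 10.2% lower with TGFB1, 28.6% and 24.6% with OA, and 9.25% and 8.32% on day 34 in ULA plates, and many of these lists are too short to be set apart from such shares. With TGFB1, of 8 epithelial markers 2 were higher and 0 lower, of 4 tested squamous markers 2 higher, TP63 (log2 fold change 5.92) and KRT5 (2.68), of 7 tested hepatocyte markers 4 lower, of 7 tested mesenchymal markers 1 higher, COL1A1, of 4 neural markers STMN2 higher (2.30) and DCX lower (-4.60), and of 4 cycling markers 4 lower. The gastric mesenchyme factor BARX1 was higher (4.57), 1 of 2 tested visceral mesenchymal regulators, and 0 of 4 tested pluripotent or germ cell markers and 0 of 1 tested blood marker were called. No endothelial marker could be tested with TGFB1. With OA, 6 of 7 tested hepatocyte markers were higher and 1 lower, led by ALB (4.99) and APOB (3.75), 5 of 8 epithelial markers higher, and 5 of 8 mesenchymal markers lower and 1 higher. With OA, 2 of 3 visceral mesenchymal regulators, 1 of 5 squamous, 2 of 4 neural, 2 of 3 pluripotent or germ cell and 4 of 4 cycling markers were lower, and PECAM1 (2.79) and CD68 (2.43), the only endothelial and blood markers tested, were higher. On day 34 in ULA plates, 6 of 6 tested squamous and 4 of 8 mesenchymal markers and 2 of 6 visceral mesenchymal regulators were higher. There 5 of 7 hepatocyte, 2 of 8 epithelial, 2 of 6 pluripotent or germ cell and 1 of 4 cycling markers were lower, 1 of 4 neural markers was higher, and 0 of 2 endothelial and 0 of 1 blood markers were called.

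The 23 EPCAM-positive cells of ULA day 34 replicate 1, left out of the tests, held 262861 UMIs. SOX2 had 47 UMIs there (179 CPM), HHEX 18 (68.5 CPM), KLF5 68 (259 CPM) and CDX1 5 (19.0 CPM), and PDX1 and NKX6-2 had 0.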
